A study of Mus musculus with 6 samples.

Results

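Expression of 7 genes of the aryl hydrocarbon receptor pathway (Ahr, Arnt, Ahrr, Tiparp, Cyp1a1, Cyp1b1 and Aldh1a3) was followed in mouse neural progenitor cells (NPCs), proliferating precursors of neurons and glia, before and during auxin treatment. The genes were chosen by name, with earlier results of these data known, and each matched 1 Ensembl identifier among the 53801 genes of the count tables. The filter on low counts kept 5 of them, and Ahrr and Cyp1a1, which it did not keep, are given as raw counts. The NPCs derive from BL/6J x CAST-EiJ hybrid embryonic stem cells that carry a degron on Spen (SPEN-AID), a tag through which auxin triggers breakdown of the SPEN protein. SPEN is a large nuclear repressor best known for silencing the X chromosome. The treated libraries came from cells given auxin at 500 uM for 24 h or 48 h, and the untreated group stood at 0 h, each with n = 2. The n in each group is 1 library of subclone 30 and 1 of subclone 31, so the replicates are 2 clonal lines and not animals. EGF and FGF were in the medium at 10 ng/ml each. All 6 libraries, untreated included, carry the degron, so effects of auxin as a compound and effects of SPEN loss cannot be told apart in these groups.

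The aryl hydrocarbon receptor is a ligand-activated transcription factor of the bHLH-PAS family that waits in the cytoplasm with the chaperone HSP90 and p23. Planar aromatic compounds bind it, among them dioxins and many indoles made from tryptophan. The loaded receptor enters the nucleus, pairs with ARNT and binds DNA at the core motif GCGTG. Cyp1a1 and Cyp1b1, which encode cytochrome P450 enzymes that oxidise such ligands, are its classical induced genes, and Cyp1a1 is the most widely used readout. Ahrr and Tiparp are induced as well and switch the receptor off again. Natural auxin is itself an indole, and the labels name the compound given here only as auxin. The comparison of treated with untreated libraries therefore asks whether the receptor's readout genes moved when auxin was added.

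Libraries held 24603816 to 43008978 counted read pairs. The NPC markers summed to between 5231 and 6964 CPM (read pairs scaled to TMM-adjusted library size) in every library, with 10 of 11 at 1 CPM or more on average and Sox1 at or near 0. Markers of hepatic endoderm, a tissue with a strong receptor response, summed to at most 0.323 CPM. Summed astrocyte markers were 574 to 867 CPM untreated, 656 to 765 CPM at 24 h and 1196 to 1287 CPM at 48 h, and their part in the results at 48 h was not tested. In bulk RNA, fewer cells of a type and less RNA per cell cannot be told apart. Spen RNA was 92.3 and 116 CPM untreated (clones 30 and 31), 173 and 218 CPM at 24 h and 200 and 259 CPM at 48 h. SPEN protein, the target of the degron, was not analysed here.

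The promoters of the 4 readout genes are shown because the core motif is what the receptor reads. RefSeq (GRCm38.p6) gave a start for 5 of the 7 members (not Ahr and Aldh1a3), and the 250 bases before each start were searched for GCGTG on both strands (CACGC on the strand printed). Capitals mark each match, and the sequences run 5′ to 3′ on the gene's strand.
Cyp1a1: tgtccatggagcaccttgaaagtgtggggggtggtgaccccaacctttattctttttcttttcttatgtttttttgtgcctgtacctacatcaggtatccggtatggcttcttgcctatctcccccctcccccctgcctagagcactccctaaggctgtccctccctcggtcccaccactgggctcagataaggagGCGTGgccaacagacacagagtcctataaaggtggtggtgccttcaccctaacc
Cyp1b1: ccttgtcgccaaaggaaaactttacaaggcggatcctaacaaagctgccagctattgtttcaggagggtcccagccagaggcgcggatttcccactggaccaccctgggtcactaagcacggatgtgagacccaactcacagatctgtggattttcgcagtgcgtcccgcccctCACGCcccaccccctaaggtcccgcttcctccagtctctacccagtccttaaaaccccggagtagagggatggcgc
Ahrr: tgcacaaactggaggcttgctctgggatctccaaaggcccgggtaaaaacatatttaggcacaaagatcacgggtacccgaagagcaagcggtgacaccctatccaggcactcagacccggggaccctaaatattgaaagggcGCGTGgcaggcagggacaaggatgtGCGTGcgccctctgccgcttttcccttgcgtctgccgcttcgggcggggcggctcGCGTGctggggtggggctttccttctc
Tiparp: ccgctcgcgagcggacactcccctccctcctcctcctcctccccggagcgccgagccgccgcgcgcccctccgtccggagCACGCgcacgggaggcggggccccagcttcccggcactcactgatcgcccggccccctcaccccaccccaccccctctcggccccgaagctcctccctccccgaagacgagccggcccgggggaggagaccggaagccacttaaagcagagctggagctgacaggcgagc
The windows are chr9:57697363-57697612 (plus strand) for Cyp1a1, chr17:79715062-79715311 (minus) for Cyp1b1, chr13:74292332-74292581 (minus) for Ahrr and chr3:65528197-65528446 (plus) for Tiparp. All 5 windows with a start held the motif, against 28.2% of 32851 RefSeq promoter windows of the same length. The motif contains the base pair step CG, and the 5 windows held from 3 (Cyp1a1) to 28 (Tiparp) of these at 53.6% to 75.2% GC. The other windows were not matched for this, and the members were not a random draw, so the contrast shows no enrichment. Ahrr held 3 matches, a number reached by 2.77% of all windows. Cyp1a1 held 1 match at 54 to 50 bases before its start, Cyp1b1 1 at 76 to 72, Tiparp 1 at 170 to 166 and Arnt 1 at 29 to 25. The longer form TNGCGTG, which contains the core, occurred in the Ahrr window alone among the 5 and in 4.10% of all windows. A match is a description of these letters and not a measured binding site, and upstream enhancers lie outside the windows.

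**Figure D1:**
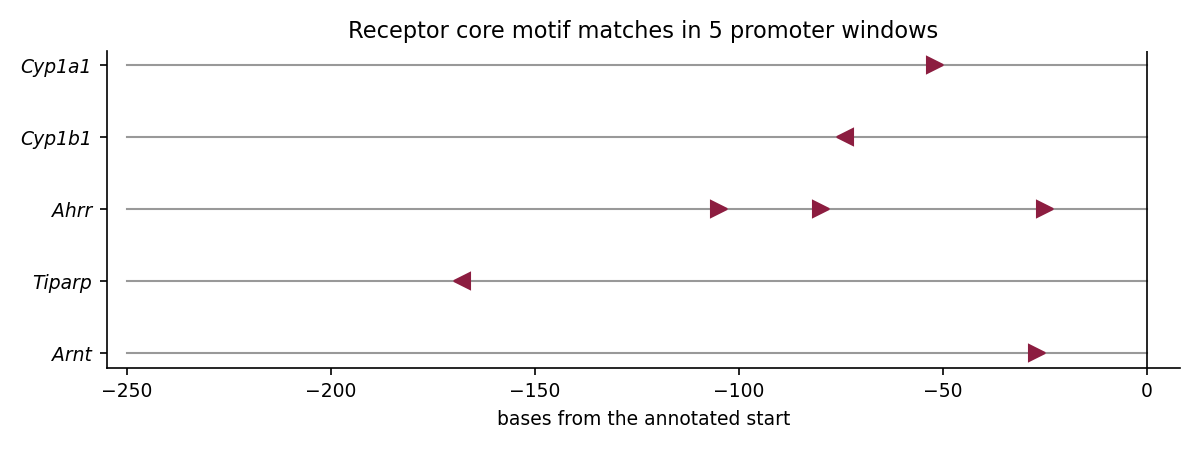
Matches to the receptor core motif in the 250 bases before the RefSeq start of 5 members. Each line is a promoter, the x axis is the distance from the start in bases, and arrowheads point right for a match on the gene's strand and left for the other strand. Ahrr has 3 matches and the other 4 genes have 1 each.

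Per kilobase of exon, the members fell into separate tiers over the 6 libraries. Tiparp had the highest level (13.7 ± 2.19 CPM per kb, SD over 6 libraries), and Arnt followed with 9.92 ± 1.24, their ranges overlapping. Cyp1b1 stood well below at 1.41 ± 0.359 CPM per kb and overlapped neither neighbour. Aldh1a3 had 0.388 ± 0.210 and Ahr 0.185 ± 0.0443 CPM per kb, with overlapping ranges. Cyp1a1 (0.0220 CPM per kb) and Ahrr (0.0196) were lowest and overlapped. Tiparp thus lay above 83.3% of the 26823 genes with any count, Ahr above 41.8% and Cyp1a1 above 22.3%. These levels mix the 3 groups and describe rank only.

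The receptor gene itself was weakly transcribed. Ahr (ENSMUSG00000019256, chromosome 12, 35497974 to 35535038, minus strand, mm10) gave 31 and 35 read pairs untreated (clones 30 and 31), 46 and 32 after 24 h and 43 and 38 after 48 h. As CPM these were 1.24 and 0.875, 1.15 and 0.759, and 1.39 and 1.43. Both 48 h values lay above all 4 others, while the untreated and 24 h values overlapped. The log2 change was -0.14 ± 0.37 (SE) at 24 h and 0.42 ± 0.37 at 48 h (edgeR adjusted p = 0.9998 and 0.564; 0.947 and 0.321 with the clone as a block). With the block the 95% interval of the fold at 24 h ran from 0.551 to 1.48 and at 48 h from 0.824 to 2.21. Counting error alone (exact 95% interval) put the 48 h ratio over untreated at 1.39 (0.989 to 1.95) for both clones, 1.12 (0.688 to 1.83) in clone 30 and 1.64 (1.01 to 2.67) in clone 31. The ratio of 48 h over 24 h was 1.48 (1.07 to 2.05) for both clones, and its edgeR adjusted p was 0.173 with the block.

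Arnt, the obligate partner of the loaded receptor and also of the hypoxia factors, was abundant. It measured 67.4 and 86.6 CPM untreated, 70.3 and 82.2 CPM at 24 h and 76.5 and 93.5 CPM at 48 h (ENSMUSG00000015522, chromosome 3, 95434388 to 95497240). Clone 31 was higher than clone 30 in all 3 groups, and the groups overlapped. The log2 change was -0.01 ± 0.09 at 24 h and 0.15 ± 0.09 at 48 h with the clone blocked (adjusted p = 0.995 and 0.274 in edgeR; 0.9998 and 0.710 without the block). The interval of the fold with the block was 0.857 to 1.15 at 24 h and 0.953 to 1.28 at 48 h. Arnt2, the paralogue that serves neural cells, had 19.6 CPM per kb over the 6 libraries against 9.92 for Arnt. Its log2 change was 0.20 ± 0.09 at 24 h and 0.17 ± 0.09 at 48 h with the block (edgeR adjusted p = 0.819 and 0.213).

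Cyp1a1, the most responsive target in most tissues, was close to silent in every library. It had 1 and 2 read pairs untreated (clones 30 and 31), 2 and 8 at 24 h, and 0 and 1 at 48 h (ENSMUSG00000032315, chromosome 9, 57687928 to 57703824). The 24 h library of clone 31 was the highest with 0.190 CPM (exact 95% Poisson interval 0.0819 to 0.374), and the other 5 ranged from 0 to 0.04999 CPM. For the count of 0 in the 48 h library of clone 30, the exact Poisson upper bound is 3.69 read pairs (0.119 CPM), and the floor of 3 read pairs used for zeros is 0.0969 CPM. Summed over clones, 24 h over untreated gave 10 against 3 read pairs, a ratio of 2.63 with an exact 95% interval from 0.678 to 14.9. In clone 31 alone the ratio was 3.79 (8 against 2, interval 0.757 to 36.7) and in clone 30 it was 1.246 (2 against 1, interval 0.0649 to 73.5). At 48 h the summed ratio was 0.376 (1 against 3, interval 0.00717 to 4.69). These intervals cover counting error only. All of them hold 1, and the upper bound at 24 h leaves a rise of several fold undecided, though at a level under 0.4 CPM. Without the filter on low counts edgeR gave Cyp1a1 an adjusted p = 1 at 24 h and 0.771 at 48 h. The Ensembl gene model begins upstream of the RefSeq start used for the promoter, and the counts do not say which exon the reads came from. Cyp1a2, its neighbour and another classical target in liver, had 0 read pairs in all 6 libraries.

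Ahrr, the repressor that competes with the receptor for ARNT, was also at the limit of detection. Its counts were 4 and 6 read pairs in the untreated libraries, 8 and 12 after 24 h, and 4 and 5 after 48 h (ENSMUSG00000021575, chromosome 13, 74211118 to 74292331). As CPM both 24 h libraries (0.1999 and 0.284) lay above the other 4 (0.129 to 0.188). The sum of 20 against 10 read pairs gave a ratio of 1.58 at 24 h (exact 95% interval 0.706 to 3.78), and 9 against 10 gave 1.02 at 48 h (0.365 to 2.78). Without the filter edgeR gave a log2 change of 0.63 ± 0.66 at 24 h and 0.03 ± 0.72 at 48 h (adjusted p = 1 for each). Ahrr, with 3 core motifs in its window, thus differed from untreated by less than counting error could resolve.

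**Figure D2:**
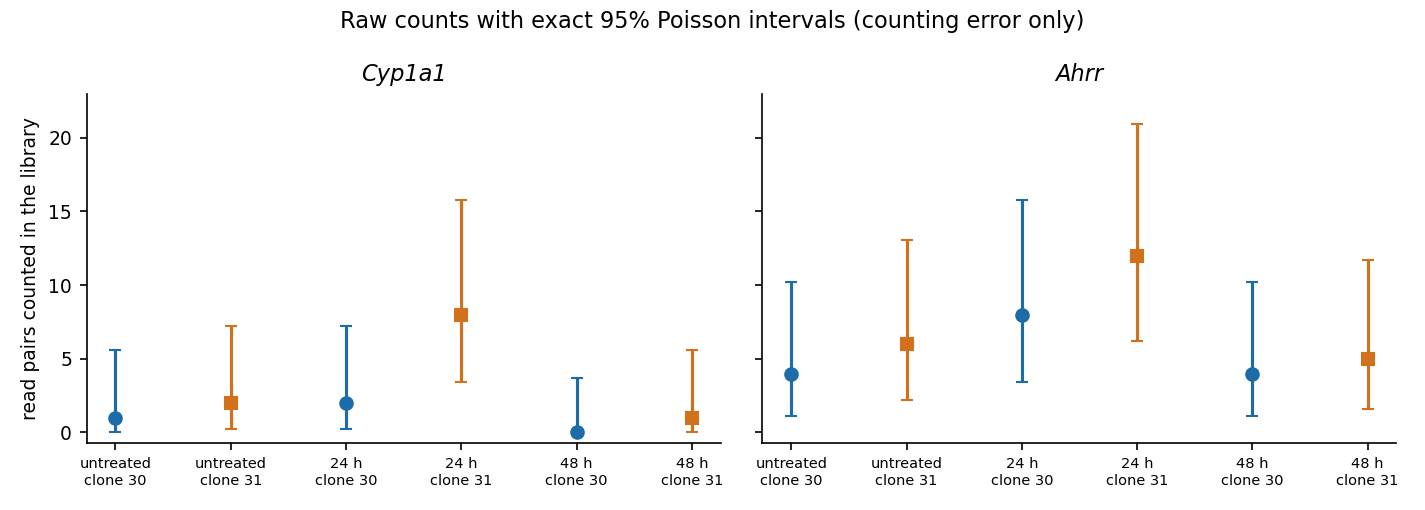
Raw read pairs of Cyp1a1 and Ahrr in each of the 6 libraries. Points are counts (blue circles clone 30, orange squares clone 31) and bars are exact 95% Poisson intervals, which cover counting error only. Cyp1a1 stays between 0 and 8 read pairs and Ahrr between 4 and 12, with the highest count of each in the 24 h library of clone 31.

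Tiparp encodes a mono-ADP-ribosyl transferase that modifies the receptor and shortens its activity. It had the highest level of the readout genes and the smallest standard errors among them. It stood at 49.4 and 59.3 CPM untreated (clones 30 and 31), 53.4 and 58.8 CPM at 24 h and 59.3 and 77.2 CPM at 48 h (ENSMUSG00000034640, chromosome 3, 65528410 to 65555518). The untreated and 24 h values interleaved, and the 48 h values were the highest of each clone. At 24 h the log2 change was 0.05 ± 0.10 with the clone blocked (adjusted p = 0.946 in edgeR, and 0.9998 without the block), and the 95% interval of the fold was 0.874 to 1.23. At 48 h it was 0.32 ± 0.10 (fold 1.252, interval 1.06 to 1.48), which did not pass (edgeR adjusted p = 0.0738, and 0.354 without the block). That value passed in the blocked fit without the 48 h library of clone 30 (log2 0.42, adjusted p = 0.00799), and was 0.21 without that of clone 31 (adjusted p = 0.178). Between 24 h and 48 h it was 0.27 ± 0.10 with the block (adjusted p = 0.0930). A noncoding gene on the opposite strand, 4931440P22Rik, shares 223 of the 4358 exon bases of Tiparp and had 18 to 31 read pairs per library. Whether the libraries mark strand was not tested, and without strand the reads of this pair cannot be told apart.

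Cyp1b1, the cytochrome that also acts on oestrogens and retinoids and is made in many mesenchymal cells, lay below untreated at 24 h and above it at 48 h. It went from 8.14 and 6.47 CPM untreated (clones 30 and 31) to 6.05 and 4.84 CPM at 24 h and 10.1 and 7.76 CPM at 48 h (ENSMUSG00000024087, chromosome 17, 79706953 to 79715041). Within each clone 24 h was lowest and 48 h highest, while between clones the groups overlapped. Against untreated the log2 change was -0.43 ± 0.15 at 24 h and 0.28 ± 0.14 at 48 h with the clone as a block. Neither passed (edgeR adjusted p = 0.774 and 0.209; 0.9998 and 0.572 without the block). The interval of the fold at 24 h was 0.581 to 0.955 with the block. From 24 h to 48 h Cyp1b1 rose by 0.71 ± 0.15 in the blocked fit, 1.64-fold with an interval of 1.28 to 2.10 (edgeR adjusted p = 0.0234, and 0.172 without the block). The clones gave 0.73 and 0.68. Without either 24 h library the blocked change was 0.69 (clone 30 left out) or 0.72 (clone 31 left out), and it was then not called (adjusted p = 0.251 and 0.246). The 12 mesenchymal markers summed to 40.4 to 52.5 CPM in clone 30 and 145 to 180 CPM in clone 31. They did not all differ alike: Lum, Dcn and Col3a1 were at 22.7 to 35.6 CPM in clone 31 and at most 1.28 CPM in clone 30, while Acta2 was lower in clone 31 in all 3 groups. Cyp1b1 was lower in clone 31 in each group, and the part of these markers' source in its level was not tested.

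Aldh1a3 encodes a retinaldehyde dehydrogenase that makes retinoic acid, and at 48 h it had the largest change against untreated among the 5 tested members. It had 42 and 112 read pairs untreated (clones 30 and 31), 92 and 113 at 24 h, and 19 and 18 at 48 h (ENSMUSG00000015134, chromosome 7, 66390890 to 66427517). As CPM these were 1.68 and 2.80, 2.30 and 2.68, and 0.614 and 0.678. Both 48 h values lay below all others, and the untreated and 24 h values overlapped. At 48 h Aldh1a3 fell by 1.77 ± 0.28 against untreated in the blocked fit, 3.42-fold lower (edgeR adjusted p = 0.0249, and 0.139 without the block; DESeq2 on treatment group alone 0.00816). From 24 h to 48 h it fell by 1.94 ± 0.28 (edgeR adjusted p = 0.0162, and 0.0860 without the block). At 24 h the change was 0.16 ± 0.24 (adjusted p = 0.935, and 0.9998 without the block), and the clones differed in sign (0.44 in 30, -0.062 in 31). The blocked fall at 48 h was not called once the untreated clone 31 library was left out (log2 -1.48, adjusted p = 0.145), nor when the fit held just the 4 untreated and 48 h libraries (-1.74, 0.0662). Leaving out a 24 h library ended the call of the fall from 24 h, for clone 30 (-1.80, 0.113) as for clone 31 (-2.08, 0.104).

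**Figure D3:**
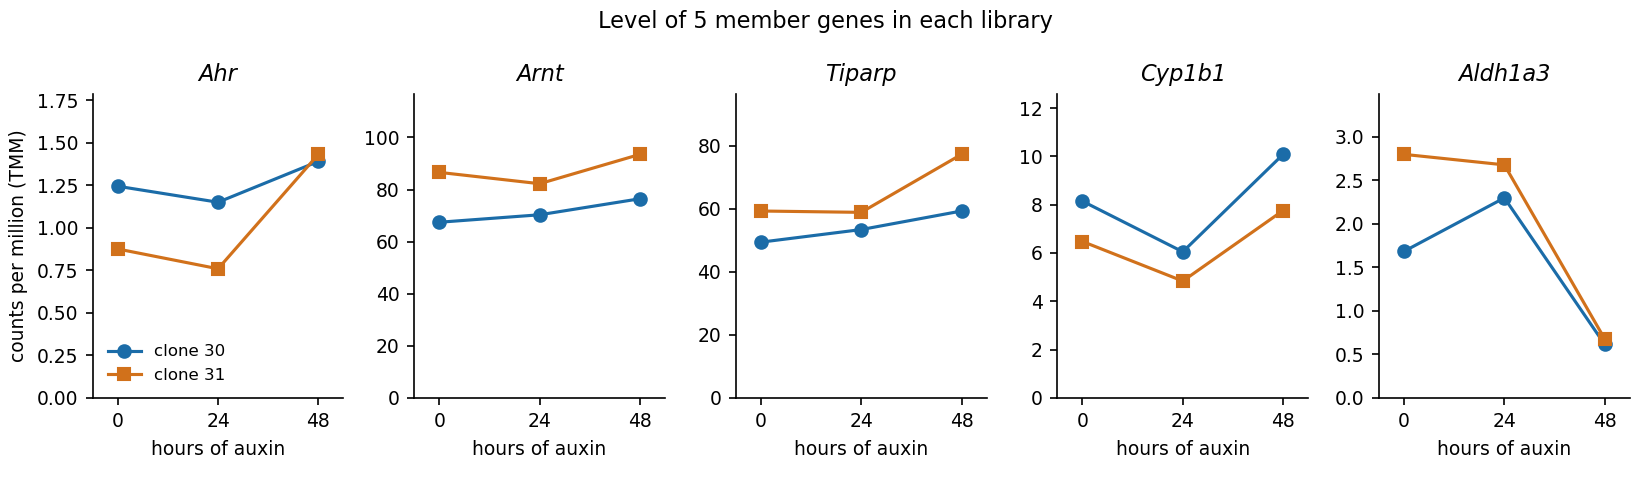
Level of the 5 members that passed the filter, in CPM after TMM scaling (y axis from 0), against hours of auxin. Lines join the 3 libraries of a clone (blue circles clone 30, orange squares clone 31). Aldh1a3 drops to 0.614 and 0.678 CPM at 48 h, Cyp1b1 is lowest at 24 h in both clones, and Arnt keeps clone 31 above clone 30 throughout.

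Counted together, the members were mostly uncalled. At 24 h against untreated edgeR called 0 of the 5 tested members and 0% of 16007 genes, both on treatment group alone and with the clone as a block. The blocked all-gene result depended on the fit. It was 19 genes with no filter and 140 when the fit held just the 4 libraries compared, with 0 members in each. It also rose when a 48 h library was left out. At an unadjusted p under 0.05 there were 0 members on treatment group alone and 1 with the block (Cyp1b1, log2 -0.43), and 240 and 988 genes in all. DESeq2 called 0 members at 24 h, and 0.0375% of genes without the block and 0.244% with it, and limma voom called 0 members in both. At 48 h against untreated edgeR called 0 members and 0% of genes on treatment group alone (1 member and 3311 genes unadjusted). With the block it called 1 of 5 members, Aldh1a3, lower, against 17.4% of genes in either direction (8.35% higher, 9.08% lower). That all-gene count of 2790 (1336 higher and 1454 lower, or 1524 and 1232 with upper-quartile scaling) moved strongly with single libraries. It dropped to 6 when untreated clone 31 was omitted and to 614 or 644 when 24 h clone 30 or 31 was, reached 6615 when 48 h clone 30 was omitted, and was 3 when the fit held just the 4 libraries compared. DESeq2 called Aldh1a3 as well, against 10.3% of genes without the block and 20.7% with it. Between 24 h and 48 h edgeR called 0 members and 0% of genes on treatment group alone (2 members and 3997 genes unadjusted). With the block it called 2 of 5, Cyp1b1 higher and Aldh1a3 lower, against 26.1% of genes. Of these 1961 (12.3%) were higher and 2224 (13.9%) lower (2549 and 1726 with upper-quartile scaling). DESeq2 called 1 member (Aldh1a3) against 15.6% without the block and 2 against 26.4% with it. The median log2 change of the 5 members with the block was -0.01 at 24 h and 0.28 at 48 h, and over all genes tested it was 0.01 and 0.02. The comparisons with untreated share the same untreated libraries. Nothing in these shares sets the members apart from other genes.

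**Figure D4:**
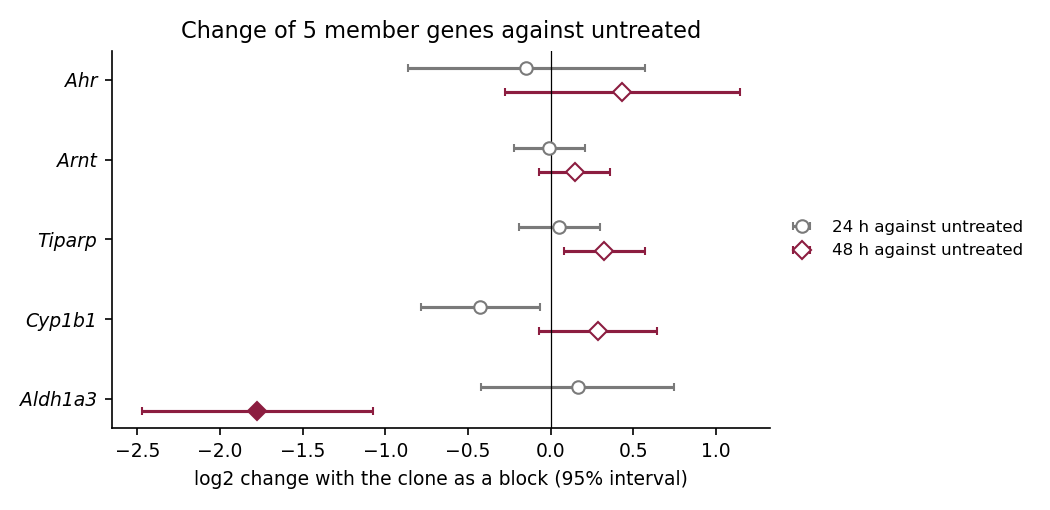
Log2 change of the 5 tested members against untreated in the edgeR fit with the clone as a block, with 95% intervals (grey circles 24 h, red diamonds 48 h). Filled symbols have an adjusted p under 0.05, which only Aldh1a3 at 48 h reached, at -1.77, while Tiparp at 24 h lies within 0.874-fold to 1.23-fold of untreated.

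The wider target battery was described from a list of 23 genes that respond to receptor ligands in various tissues, 5 of the members among them. Of these, 13 did not pass the filter on low counts, and 4 of the 13 (Cyp1a2, Serpinb2, Il1b and Il22) had 0 read pairs in all 6 libraries. The highest count among the 13 was 12 read pairs, for Ahrr. Aldh3a1, a detoxifying aldehyde dehydrogenase that is strongly induced in liver, summed to 0 read pairs untreated, 3 at 24 h and 4 at 48 h. Ugt1a6a and Ugt1a6b, glucuronidation enzymes that share exons, summed to 7, 9 and 14, and to 0, 8 and 8 read pairs in that order, and their counts are uncertain because reads in shared exons cannot be assigned. Of the 10 tested genes 0 rose and 0 fell at 24 h with the block (median 0.09). At 48 h 1 rose, 3 fell and 6 were not called (median 0.30, and 0.02 over all genes), where 8.35% of all genes rose and 9.08% fell in that fit. Selenbp1, among the 6 not called, differed between the clones. It had 26.3 and 24.0 CPM untreated (clones 30 and 31), 17.6 and 24.3 CPM at 24 h and 27.9 and 107 CPM at 48 h. The high value rests on 1 library, and the difference between clones was not tested. Nqo1, a quinone reductase under the control of both the receptor and the antioxidant factor NRF2, rose from 53.4 and 35.3 CPM untreated to 68.1 and 65.1 CPM at 48 h (log2 0.62 ± 0.14). In edgeR its adjusted p was 0.0399 blocked and 0.230 unblocked. Slc7a5, the large neutral amino acid transporter that also carries tryptophan, fell by 0.61 ± 0.12 (adjusted p = 0.0302 with the block, 0.546 without). Nfe2l2, which encodes NRF2, fell by 0.41 ± 0.09 (adjusted p = 0.0382 with the block, 0.233 without), and Aldh1a3 was the other gene that fell. The blocked battery count at 48 h moved with single libraries. It was lower without the untreated clone 31 library and higher without the 48 h library of clone 30, as was the count over all genes. These shifts are thus not particular to the battery.

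**Figure D5:**
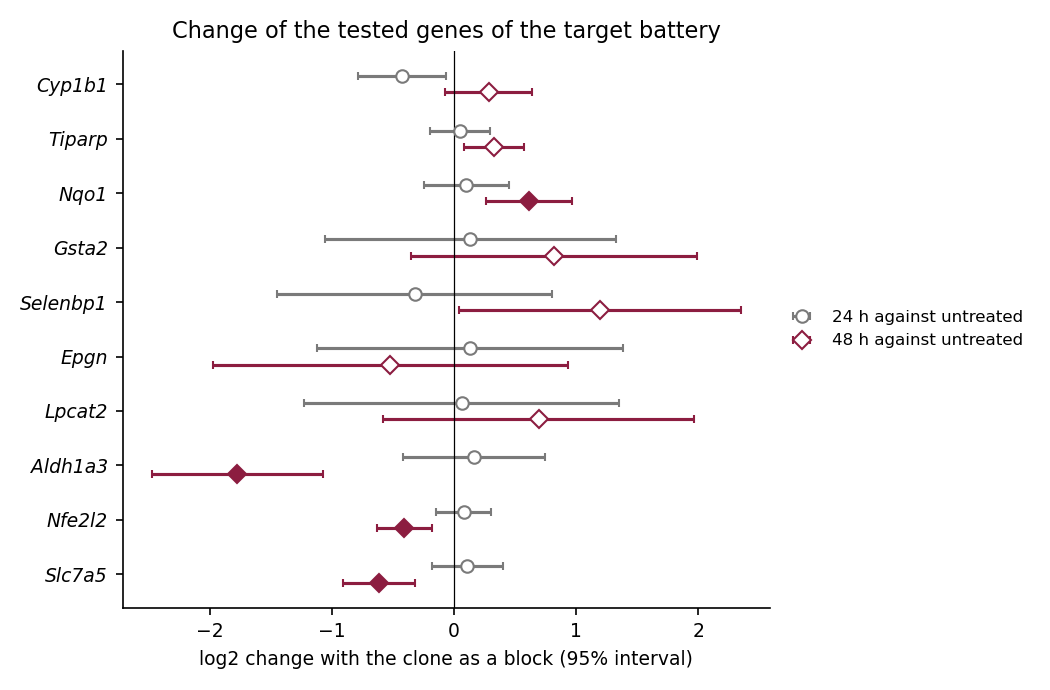
Log2 change of the 10 tested genes of the target battery against untreated, edgeR with the clone as a block, with 95% intervals (grey circles 24 h, red diamonds 48 h, filled where the adjusted p is under 0.05). No symbol is filled at 24 h, and at 48 h Nqo1 is filled to the right of 0 and Aldh1a3, Nfe2l2 and Slc7a5 to the left.

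Of 9 tested genes of the receptor complex and its partners 2 fell and 0 rose at 48 h with the block (median -0.12), beside 17.4% of all genes called and 9.08% lower. Hsp90aa1, the inducible HSP90 form, fell by 0.62 ± 0.10 and Ptges3, which encodes p23, fell by 0.62 ± 0.08 (edgeR adjusted p = 0.0249 and 0.0238 with the block, 0.139 for both without). Hsp90ab1, the constitutive and more abundant form, was -0.14 ± 0.14 at 48 h (adjusted p = 0.512 with the block). At 24 h 0 of the 9 were called.

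Genes of related bHLH-PAS proteins, of which several also pair with ARNT, gave 2 rises and 0 falls among 14 tested at 48 h with the block (median 0.29). Of all genes 17.4% were called in that fit and 8.35% were higher. The rises were in 2 genes of this list. They were Arntl, the clock factor BMAL1 (log2 0.80 ± 0.13, edgeR adjusted p = 0.0250), and Ncoa1, a coactivator (0.54 ± 0.13, adjusted p = 0.0447). Enzymes of tryptophan and indole metabolism, which make and remove natural receptor ligands, gave 2 rises and 0 falls among 8 tested (median 0.64; 8.35% of all genes rose), Maoa (0.67 ± 0.14, adjusted p = 0.0334) and Kyat3 (0.62 ± 0.11, adjusted p = 0.0276). The ligand-producing dioxygenase genes Ido1 and Tdo2 did not pass the filter. Ido2, of the same list, passed it and was not called. It had 6 and 8 read pairs untreated (clones 30 and 31), 21 and 6 at 24 h, and 10 and 15 at 48 h. Without the block 0 genes of these lists were called, and 0 were called at 24 h with it.

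In the NRF2 list 6 of the 12 genes lay above 0 at 48 h with the block and 6 below. Nqo1 was the only one called higher, while 3 were called lower (8.35% and 9.08% of all genes). These were Gclm, a glutathione synthesis subunit (-0.37 ± 0.09, edgeR adjusted p = 0.0436), Gsr, glutathione reductase (-0.54 ± 0.13, 0.0452), and Hmox1, haem oxygenase (-0.52 ± 0.13, 0.0497). At 24 h 11 of the 12 lay above 0 with the block and 0 were called (median 0.18, and 0.008 over all genes). From 24 h to 48 h the blocked fit called 2 of the 12 higher and 6 lower, beside 12.3% and 13.9% of all genes. The median change was then -0.58, and 0.03 over all genes. Without the block 0 of the 12 were called in each of these comparisons.

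Around Aldh1a3, 2 of 11 tested genes of retinoic acid synthesis and response rose at 48 h with the block and 1, Aldh1a3, fell (median 0.21), against 17.4% of all genes called in either direction. Dhrs3, which turns retinaldehyde back into retinol, went from 4.01 and 1.27 CPM untreated to 15.2 and 7.30 CPM at 48 h (log2 2.17 ± 0.29), with an edgeR adjusted p of 0.0238 blocked and 0.179 unblocked. Aldh1a1, the paralogue that makes retinoic acid in many of the same tissues, had 27.8 and 55.0 CPM untreated, 11.8 and 42.5 CPM at 24 h and 21.9 and 93.0 CPM at 48 h. Its change at 48 h against untreated was 0.21 ± 0.26 (adjusted p = 0.590), and from 24 h to 48 h it rose by 1.03 ± 0.26 (adjusted p = 0.0372) with the block. Per kilobase Aldh1a1 stood at 8.51 CPM per kb against 0.388 for Aldh1a3.

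Tiparp belongs to a family of mono-ADP-ribosyl transferases, of which 2 of 8 tested genes rose and 0 fell at 48 h with the block (median 0.29), where 8.35% of all genes rose. Parp14 went from 4.17 and 1.4996 CPM untreated to 11.02 and 5.72 CPM (log2 1.64 ± 0.21), with an edgeR adjusted p of 0.0238 blocked and 0.2499 unblocked. Parp6 rose by 0.49 ± 0.11 (adjusted p = 0.0399 with the block, 0.267 without). Tiparp, at 0.32, was among the 6 that did not pass. When the untreated clone 31 library was omitted, the blocked edgeR fit called 0 genes at 48 h in each of the 7 lists, and 6 genes in all.

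The subclones were compared over the 3 groups, with treatment group and clone as terms. Arnt was higher in clone 31 by 0.29 ± 0.07 (edgeR adjusted p = 0.0454), the only member called, against 16.2% of 15492 genes in either direction (7.58% higher, 8.58% lower). That call was lost with upper-quartile scaling (0.24, adjusted p = 0.0712), with total counts (0.23, 0.104) and with DESeq2 (0.29, 0.0546). It was also lost without either untreated library (adjusted p = 0.192 and 0.189) and without either 24 h library (0.287 and 0.281). Tiparp was 0.26 ± 0.08 in the same direction (adjusted p = 0.0880), and Cyp1b1 was -0.35 ± 0.12 (0.107). Ahr was -0.35 ± 0.23 (0.362) and Aldh1a3 0.39 ± 0.21 (0.269). Arnt2 was lower in clone 31 (log2 -0.35 ± 0.07, adjusted p = 0.0246), the opposite sign to Arnt.

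The genes most like each member over the 6 libraries were ranked by Pearson's r of log2 CPM among genes with at least 5 CPM on average. With 6 libraries from 2 clones some genes track any member closely, so the values are descriptive. Ahr was closest to Snx13, a sorting nexin gene on the same chromosome (35047186 to 35147479, r = 0.999), and to Sod3 (r = 0.996). Arnt was closest to Arrdc2 and Ssbp2 (r = 0.996 and 0.990), Tiparp to Kdm5a and Vps13b (0.995 and 0.993), and Cyp1b1 to Ntng2 and Cgrrf1 (0.988 and 0.987). Aldh1a3 was closest to Gatad1 and Suv39h2 (both 0.998).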

How the data were processed

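Raw counts of read pairs per gene were deposited for 6 libraries. The authors made them with featureCounts 1.6.1 over exons, with the reverse strand setting, on Ensembl release 92 of GRCm38 (mm10), per the file headers, from alignments marked merged and free of duplicates. R 3.4.2 and DESeq2 are also named in the submitters' processing notes. The TruSeq RNA kit named in the labels does not mark strand in its standard form, and counting with a strand setting would then drop part of the read pairs. Removal of duplicates can lower counts of strong genes more than weak ones.

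Symbols were matched by Ensembl identifier (53620 of 53801). The main test was the 2-sided robust quasi-likelihood test of edgeR 4.0.16 (R 4.3.3), with TMM scaling and filterByExpr, fitted to the 6 libraries by treatment group, adjusted over all 16007 genes (Benjamini-Hochberg, threshold 0.05). Clones were compared with group and clone as terms. Same-numbered libraries come from the same subclone, per the titles, and clone differences correlated across genes at 0.60 to 0.90 between groups, so the clone pairs them. P-values of the fit on treatment group alone measure the spread between 2 clones per group. With the block they measure what remains after a clone difference shared by all groups is taken out. The clone comparison sets libraries of a single clonal line against those of another, so its p-values do not measure spread between clones. Standard errors are the log2 change over the square root of F, and 95% intervals use the fit's t quantile. The fits were tested on simulated data with a clone difference that was the same in all groups, as the block assumes. There the fit on treatment group alone missed the changed genes and the block recovered most of them. The simulation held no difference in response between the clones, so it does not decide between the fits for these data. Alternatives were other scalings, filters, DESeq2 1.42.0, limma 3.58.1 voom, the clone block, the 4 libraries compared, and leaving out each library. List counts with a library left out were chosen after seeing the data.

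The members, the 7 lists and the marker lists were chosen with earlier results of these data known. Named genes were the members, up to 4 called genes per list by smallest p at 24 h or 48 h, Arnt2, Nqo1, Cyp1a2 and Aldh1a1, and the 2 genes most like each tested member. Hsp90ab1, Ido1, Ido2, Tdo2, Selenbp1, untested targets and the markers were named after their values were seen. Not every gene named by this rule is reported here. Ratios of low counts use exact binomial intervals (counting error only).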

Additional observations from a re-analysis of the deposited data

Results flagged for a closer look

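Between untreated and 24 h, 3 members had changes of opposite sign in the 2 clones, each from 1 pair of libraries, and the difference between clones was not tested. On the log2 CPM scale Arnt was 0.060 in clone 30 and -0.074 in clone 31, Tiparp 0.11 and -0.010, and Aldh1a3 0.44 and -0.062.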

How the results depend on the processing

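At 24 h against untreated 0 members were called under every alternative run, also where the blocked fit to just the 4 libraries compared called 140 genes in all. At 48 h against untreated the count went from 0 to 1 (Aldh1a3, lower) with DESeq2, with the clone as a block, and with the block under DESeq2, limma voom, DESeq2 size factors, upper-quartile scaling, total counts or no filter. With the block and 1 library left out it ranged from 0 to 2, and without the block it stayed at 0. Between 24 h and 48 h it went from 0 to 1 with no filter and with DESeq2. It was 2 with the block, with the block under DESeq2, limma voom, DESeq2 size factors, total counts, no filter or the 4 libraries compared, and 3 with the block and upper-quartile scaling, where Tiparp was also called (log2 0.35, adjusted p = 0.0468). With the block and 1 library left out it ranged from 0 to 3. Between the clones the count went from 1 (Arnt) to 0 with upper-quartile scaling, total counts, a filter at 1 CPM, DESeq2 and no replicate block, and ranged from 0 to 1 with 1 library left out. The cause was not tested.

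Among the alternatives run, members' log2 changes turned sign only when a library was left out. At 24 h the ranges were -0.47 to 0.13 for Ahr (-0.34 to 0.031 with the block), -0.18 to 0.18 for Arnt (-0.053 to 0.044, with 0.043 without the 24 h library of clone 31), -0.076 to 0.19 for Tiparp (-0.036 to 0.14) and -0.17 to 0.57 for Aldh1a3 (-0.069 to 0.46). Without the block Arnt ranged from -0.034 to 0.33 at 48 h and from -0.0023 to 0.31 between the times. Fits without the block mix the clone difference with the treatment once a library is left out. Depth limits Cyp1a1 and Ahrr, where the floor of 3 read pairs is 0.0711 to 0.1203 CPM.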
